A study of Ginkgo biloba with 6 samples.

Results

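The set comprised 64 loci of Ginkgo biloba leaves with moderate read levels, far lower after ultraviolet-B (UV-B) light, out of 43190 loci counted and 23641 tested. The members were chosen by their measured levels in all 6 libraries. A member had a mean of at least 5 and under 100 CPM (each read count taken relative to its library size after correction by TMM composition factors), and its lowest control value was at least 3 times its highest UV-B value. All levels and differences of the members between control and UV-B leaves are therefore given as a description, without a test. Ginkgo biloba is a gymnosperm tree whose leaves are rich in flavonoids. The control leaves came from seedlings kept for 14 days in white light free of UV-B (3 libraries), and the UV-B leaves from seedlings given 21.42 kJ/m2 of UV-B per day for 14 days (3 libraries). Both groups shared day and night temperatures of 25 °C and 18 °C and a cycle of 16 h light and 8 h dark. Photosynthetically active light was 350 µmol/m2 per second in both groups. No genotype, strain or plant age is given in the labels, and nothing there says that the replicates were separate plants, so the spread between libraries may be technical in part.

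UV-B is the short-wave edge of the sunlight that reaches the ground. Plants perceive it through the UVR8 photoreceptor, which raises genes of flavonoid synthesis and of DNA repair, and strong exposure is also known to lower transcripts of growth and photosynthesis in leaves. The identifiers of the 64 members are not paired with names, products or coordinates in the sources used here, so none of these roles is assigned to a member, gene lists by function were not applied, and the leaf label was not checked against marker genes. Members are described by level, by spread between libraries and by what their identifiers show. Only 2 are named, by a rule that took the member with the highest mean CPM and the member with the widest gap among those with at least 3 reads in every UV-B library. CPM were not adjusted for transcript length, so an order by CPM is one of reads, not of molecules. In bulk leaf RNA, fewer cells of a type and less RNA per cell cannot be told apart.

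The libraries held 37528794 to 47559213 counts, and their TMM factors were 0.898 to 0.946 in control and 1.05 to 1.15 in UV-B libraries. The members took 0.166% to 0.248% of all counts in the control libraries and 0.0274% to 0.0313% in the UV-B libraries. Every library of one group lay apart from those of the other in this share, as the choice of members requires.

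Few loci met the rule. Of 12720 tested loci with a mean of 5 to under 100 CPM, 64 (0.503%) had the required gap. The mirrored gap, with the lowest UV-B value at least 3 times the highest control value, was met by 21 (0.165%), and with library size alone as the scaling the counts were 43 lower and 34 higher loci. Leaving out 1 library moved the mirrored count to between 17 (without UV-B replicate 1) and 42 (without control replicate 3), with 41 without control replicate 1. The same gap towards lower UV-B levels was met by 133 of 9207 loci under 5 CPM (1.44%) and by 14 of 1714 loci of at least 100 CPM (0.817%). All 64 members also passed the edgeR quasi-likelihood test as lower in UV-B leaves (adjusted p below 0.05), against 1403 of all 23641 tested loci (5.93%). Since the members were selected on the same contrast, nothing is read from that count.

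The limits of the rule passed through a continuous range of values. The members just inside the gap limit had ratios of 3.005, 3.009 and 3.010 between the lowest control and the highest UV-B value, and the loci just outside had 2.899, 2.885 and 2.879. The lowest mean of a member was 5.11 CPM, and the nearest locus below the limit with the same gap had 4.94 CPM. At the upper end the highest member had 76.7 CPM and the next locus with the same gap 102 CPM. Over all 64 the ratio had a median of 4.47 and reached 43.4. It was at least 5 in 27 members, at least 10 in 10 and at least 20 in 4.

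**Figure D1:**
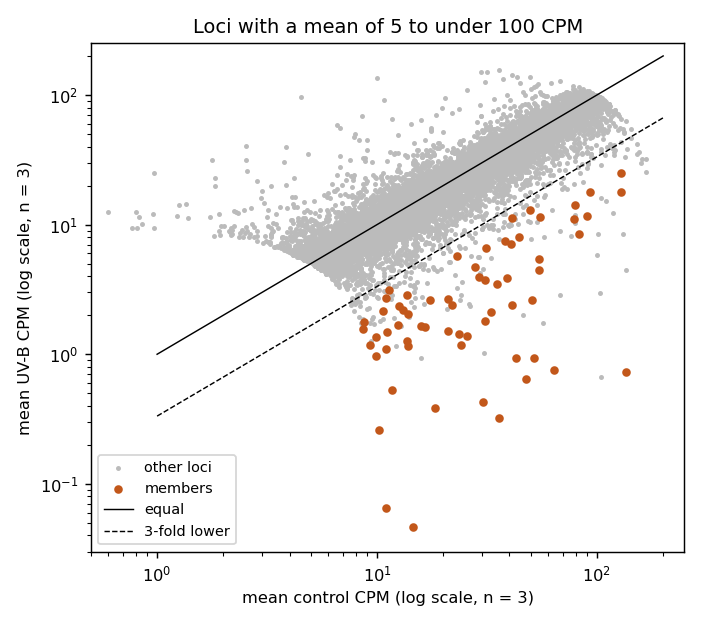
Mean CPM in UV-B leaves against mean CPM in control leaves, both on log scales with n = 3 libraries each, for the 12720 tested loci with a mean of 5 to under 100 CPM (1 locus lies outside the axes). The 64 members, in orange, lie below the dashed line of a 3-fold lower level, and some grey loci beyond that line are not members because their libraries lacked the gap.

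Reads of the members were well represented in control leaves and scarce in UV-B leaves. Mean control levels ran from 8.66 to 135.8 CPM with a median of 26.7 CPM. Mean UV-B levels ran from 0.0464 to 24.8 CPM with a median of 2.17 CPM. The UV-B mean was under 0.5 CPM in 6 members, from 0.5 to under 1 CPM in 7, from 1 to under 5 CPM in 35 and at least 5 CPM in 16. Transcripts thus stayed countable in UV-B leaves for nearly the whole set. No member lacked reads in all 3 UV-B libraries, 3 members had a UV-B library without a read, and 1 member averaged under 3 reads per UV-B library.

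Expressed as a share of the control mean, the UV-B mean was 0.318% to 27.8%, with a median of 11.5% and quartiles of 5.86% and 17.9%. It was under 1% of control in 4 members, from 1% to under 5% in 9, from 5% to under 10% in 15, from 10% to under 20% in 26 and at least 20% in 10. As a ratio of means, the control level was at least 4 times the UV-B level in 61 members, at least 16 times in 18 and at least 64 times in 7. The fitted log2 fold changes had a median of -3.12, against 0.003 over all 23641 tested loci. Setting the member under 3 reads at its bound could not move that median, since the member lies far below it either way. Standard errors ran from 0.11 to 1.62 with a median of 0.37. The remaining share differed little between abundance classes, with a median of 10.95% in the 41 members under 20 CPM and 13.0% in the 23 members of 20 CPM or more. The ranges of these classes overlapped almost fully (0.318% to 27.8% and 0.538% to 27.3%).

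**Figure D2:**
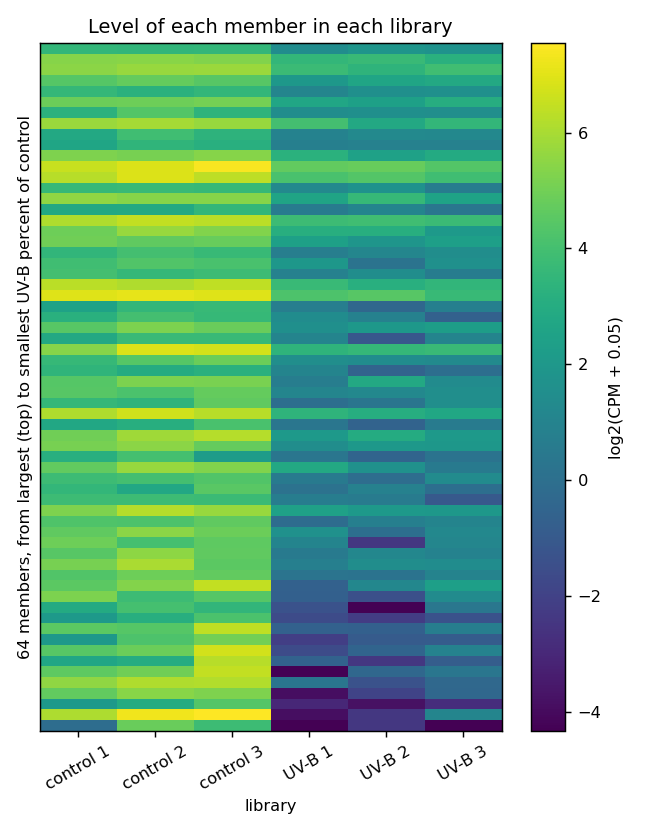
Level of each of the 64 members (rows) in each of the 6 libraries (columns) as log2(CPM + 0.05), with rows ordered from the largest share of the control level left in UV-B leaves, 27.8%, at the top to the smallest, 0.318%, at the bottom. Each row is darker in the 3 UV-B columns, and the rows at the bottom vary most from library to library.

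Novel00898 had the highest mean of the set, 76.7 CPM. It had 92.9, 119 and 173 CPM in control replicates 1, 2 and 3 and 26.1, 27.7 and 20.7 CPM in UV-B replicates 1, 2 and 3. The UV-B libraries were close to each other, while control replicate 3 stood above the other controls. The means were 128.6 ± 41.1 CPM in control and 24.8 ± 3.68 CPM in UV-B leaves (SD, n = 3 each), which leaves 19.3% of the control level, and the log2 fold change was -2.37 ± 0.25 (SE, edgeR). Between its lowest control and its highest UV-B value the ratio was 3.36, near the limit of the rule. Its identifier is of the type without the prefix Gb, which only 2 members carried.

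Gb_07423 had a far wider gap. Its reads numbered 2111, 2371 and 3003 in control and 63, 15 and 31 in UV-B replicates 1 to 3. These correspond to 48.2, 70.4 and 72.5 CPM in control replicates 1 to 3 and to 1.15, 0.348 and 0.759 CPM in UV-B replicates 1 to 3. Control replicate 1 was the lowest control, and it was still 41.8 times the highest UV-B library. The means were 63.7 ± 13.5 and 0.753 ± 0.402 CPM (SD, n = 3 each), an 84.6-fold lower level in UV-B leaves, with a log2 fold change of -6.37 ± 0.41 (SE, edgeR). Leaving out 1 library at a time moved the log2 fold change between -6.84, when UV-B replicate 1 was left out, and -6.03, when UV-B replicate 2 was.

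**Figure D3:**
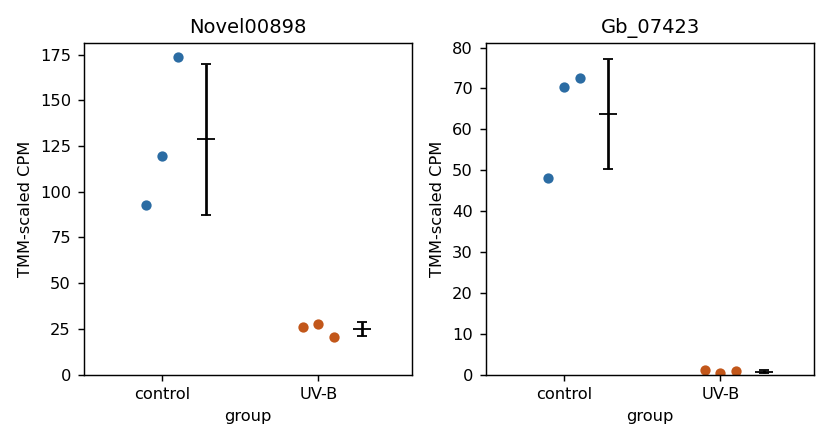
TMM-scaled CPM of Novel00898 (left) and Gb_07423 (right) in the 3 control (blue) and 3 UV-B libraries (orange), with the mean and SD of each group (n = 3) as black bars. The UV-B values of Novel00898 lie between 20.7 and 27.7 CPM, and those of Gb_07423 between 0.348 and 1.15 CPM near the axis.

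Other members illustrate how differently a large gap was built up. The member second in mean CPM had 125.6, 139.1 and 122.7 CPM in control and 18.9, 21.9 and 12.8 CPM in UV-B replicates 1 to 3, with controls that nearly coincided. The member with the widest gap of all, 43.4, had 4.25, 7.84 and 20.8 CPM in control and 0.0731, 0.0232 and 0.0979 CPM in UV-B replicates 1 to 3. Its UV-B values rest on 4, 1 and 4 reads, and its controls differed 4.89-fold among themselves. The steadiest controls belonged to a member with 13.9, 14.2 and 13.6 CPM, whose UV-B values were 1.57, 1.46 and 0.441 CPM. The steadiest UV-B values, 1.70, 1.81 and 1.79 CPM, belonged to a member with 6.28, 10.9 and 8.98 CPM in control. The smallest difference of the set was that of a member with 11.6, 11.05 and 11.4 CPM in control and 2.63, 3.60 and 3.23 CPM in UV-B replicates 1 to 3, a log2 fold change of -1.85 ± 0.16 (SE, edgeR). Group values overlapped in none of these members, as the rule requires.

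The members varied more between replicate libraries than other loci of like level. The coefficient of variation (SD over mean) between control libraries had a median of 0.269 in the members and 0.111 in all 12720 loci of 5 to under 100 CPM. Among loci with a control mean between the members' quartiles it was 0.263 in the 32 members and 0.103 in the 5398 other loci. Between UV-B libraries the median was 0.361 in the members, and among loci with a UV-B mean between the members' quartiles it was 0.328 in the 32 members and 0.208 in 5366 other loci. Counting error alone would give a median of 0.0308 in control and 0.0998 in UV-B libraries for the members. The rule bounds the extremes of each group and so touches this measure, and no test was made of it.

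Spread between controls went with the depth of the difference. Controls lay within 1.5-fold of each other in 22 members, 1.5-fold to under 3-fold apart in 31 and at least 3-fold apart in 11. Of all loci of 5 to under 100 CPM, 80.4% had controls within 1.5-fold and 3.20% at least 3-fold apart. The UV-B mean was a median 17.4% of control in the 22 members with the closest controls, 10.2% in the 31 and 2.10% in the 11 with the widest spread. A member with 1 low control can meet the rule only with very low UV-B values, and 1 high control raises the control mean. This order therefore follows in part from how the members were chosen and how the share is taken.

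Control replicate 1 held the lowest control value in 41 of the 64 members (64.1%), against 36.8% of all loci of 5 to under 100 CPM. With library size alone the counts were 38 members (59.4%) and 28.5% of loci. The highest control value was in control replicate 2 for 30 members (46.9%), in control replicate 3 for 26 (40.6%) and in control replicate 1 for 8 (12.5%). Over all loci of 5 to under 100 CPM these shares were 31.1%, 35.4% and 33.5%. In 10 members control replicate 3 was at least 2 times both other controls (0.896% of all loci of that range). In those 10 the UV-B mean was 0.591% to 10.4% of the control mean. The high replicate raises that control mean, so these low shares follow in part from how the 10 were picked. In 5 members both other controls were at least 2 times control replicate 1 (1.23% of loci). The 3 UV-B libraries showed less of a common order, with the highest value in UV-B replicate 1, 2 and 3 for 17, 20 and 27 members.

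Summed over the set, the levels were 1757, 2436 and 2669 CPM in control replicates 1, 2 and 3 and 272, 271 and 262 CPM in UV-B replicates 1, 2 and 3. With library size alone they were 1662, 2185 and 2476 CPM in control and 313, 286 and 274 CPM in UV-B replicates 1, 2 and 3, so the closeness of the UV-B sums depended on the scaling. Member by member the UV-B libraries were no closer, as the median coefficients of variation above show. With TMM factors the means were 2287 ± 474 and 268.6 ± 5.70 CPM (SD, n = 3 each), so that 11.7% of the control sum was left in UV-B leaves. The 5 members of highest mean made up 25.2% of the control sum. Without control replicate 1 the share left was 10.5%, and without control replicate 3 it was 12.8%.

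**Figure D4:**
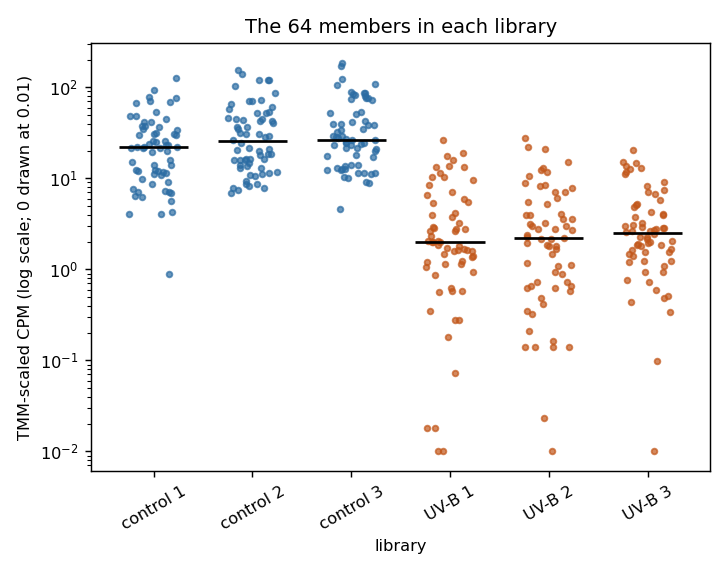
TMM-scaled CPM of the 64 members in each library on a log scale, with 1 point per member, values of 0 drawn at 0.01 CPM and black bars at the median. Medians were 21.9, 25.5 and 26.5 CPM in control replicates 1 to 3 and 1.99, 2.20 and 2.53 CPM in UV-B replicates 1 to 3, and the lowest tails are longest in the UV-B libraries.

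How many loci met the rule depended on single libraries. With the rule applied to 5 libraries, which is easier to meet, 113 loci qualified when control replicate 1 was left out and 108 when UV-B replicate 1 was, and 69 to 94 without any other library. Of the 64 members 61 were among the 113, and 63 among the 108. Without control replicate 2 or 3, 55 and 53 of the 64 were kept.

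The rule did not use the identifiers. By prefix the set was like its background, since 62 of 64 members (96.9%) had the prefix Gb, as did 12325 of 12720 loci of 5 to under 100 CPM (96.9%). The numbers after the prefix were looked at as well. In 3 cases both members of a pair carried consecutive numbers, which involved 6 of the 62 Gb members. How often other loci form such pairs was not counted, so nothing is read from these 3 cases. The rows of the deposited table are not in the order of these numbers, and no members stood in adjacent rows. Which loci lie side by side in the genome was not analysed here.

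Gb_07423 belonged to one of these pairs. Its partner with the following number had 25.1, 45.0 and 29.0 CPM in control and 3.20, 0.928 and 2.25 CPM in UV-B replicates 1 to 3. Both were highest in UV-B replicate 1 and lowest in UV-B replicate 2, but the highest control was replicate 3 in Gb_07423 and replicate 2 in its partner. In the pair with the lowest numbers, the first locus had 19.97, 30.6 and 26.1 CPM in control and 1.13, 1.09 and 1.91 CPM in UV-B replicates 1 to 3. The second had 25.6, 43.5 and 38.2 CPM and then 0.0183, 0.209 and 0.735 CPM. Both had their highest control in replicate 2 and their highest UV-B value in replicate 3, but their lowest UV-B value in different replicates. The share of the control level left was 5.39% in the first and 0.895% in the second. In the pair with the highest numbers, the first locus had 34.4, 44.5 and 26.8 CPM in control and 2.76, 3.97 and 3.77 CPM in UV-B replicates 1 to 3. The second had 34.8, 65.5 and 23.4 CPM and then 1.66, 2.81 and 2.69 CPM, and both followed the same order within each group. The counting of reads that match several places is not stated in the labels, so the counts of near-identical copies, if any of these are, would be uncertain.

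Among loci numbered next to a member, but not members themselves, a minority was lower in UV-B leaves as well. There were 118 loci with such a number, of which 56 were tested. Of these, 11 (19.6%) were lower and 1 was higher by the edgeR test, against 5.93% lower among all tested loci, while the median log2 fold change of the 56 was 0.002. The rest of the 56 did not pass the test. Of the 11, 8 averaged under 5 CPM and met the same 3-fold gap as the members. UV-B reads averaged under 3 per library in 4 of the 11. The low-count filter was reached in every control but not in every UV-B library by 6 of the 11, so these passed it through the group where they were high and the share of 19.6% is a description only. Without the filter 13 of 72 next-number loci (18.1%) were lower, against 4.65% of all loci with a read.

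Among these 11, 1 locus had 185, 341 and 174 reads in control and 24, 23 and 29 reads in UV-B replicates 1 to 3, and its fitted log2 difference was -3.46 ± 0.44 (SE; adjusted p = 0.00946 by edgeR). A more abundant one had 258, 357 and 363 CPM in control and 130, 139 and 84.9 CPM in UV-B replicates 1 to 3, and its fitted log2 difference was -1.47 ± 0.22 (SE; adjusted p = 0.0143 by edgeR). Its groups did not overlap, but its gap of 1.86 and its mean both lay outside the rule. These loci were measured in the same libraries as the members and are not replicates of them.

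The share of lower loci varied with distance in number from a member. It was 14.9% at a distance of 2 (10 of 67 tested), 6.94% at 3, 11.8% at 4, 16.7% at 5 (10 of 60), 7 of 70 at 6, 6.35% at 7, 5.56% at 8, 1.49% at 9 and 2.99% at 10. The larger shares were thus at distances 1, 2, 4, 5 and 6 and did not decline evenly. A locus can lie at several of these distances from different members, so the shares are not of separate sets of loci. The share at 3 (5 of 72 tested) was near those at 7 and 8 and near the 5.93% of all tested loci. Loci in the table rows next to a member, by comparison, were lower in 3 of 74 tested (4.05%). Members of the 3 consecutive pairs are lower by the rule, so a share that counts them is a description only. Without them, 11 of 56 next-number loci (19.6%) were lower. With them, 17 of the 62 tested places with a number next to a member (27.4%) held a lower locus. For the other loci called lower at 5 to under 100 CPM this was 91 of 862 places (10.6%), for loci of that range not called lower 709 of 12996 (5.46%), and for all tested Gb loci 1484 of 25514 (5.82%). The pattern was noticed in these data, and no test of it was made.

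**Figure D5:**
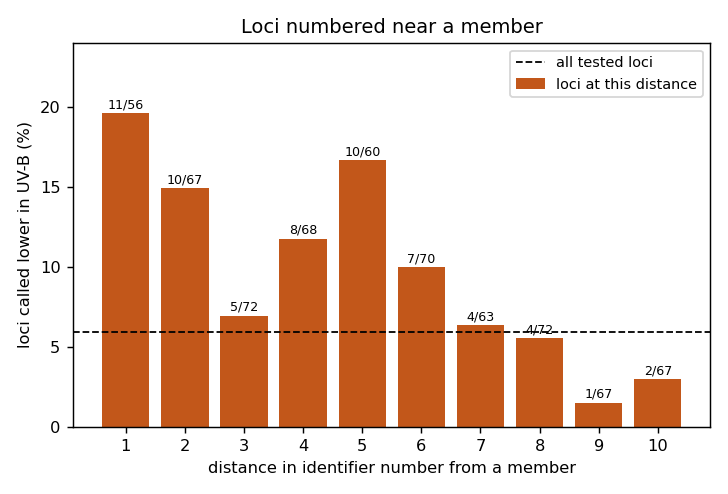
Percent of tested loci called lower in UV-B leaves (edgeR, adjusted p below 0.05) at each distance in identifier number from a member, with members left out and the number lower over the number tested above each bar. The dashed line marks the 5.93% of all tested loci, and the bars at distances 1, 2 and 5 stand highest at 19.6%, 14.9% and 16.7%. A locus can be counted in several bars.

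The count of lower next-number loci changed with the library left out. It was 5 of 57 (8.77%) without control replicate 2, 6 of 56 (10.7%) without control replicate 3, 6 of 56 (10.7%) without UV-B replicate 1, 6 of 58 (10.3%) without UV-B replicate 2 and 7 of 58 (12.1%) without UV-B replicate 3. In the same fits 2.29%, 2.94%, 3.57%, 2.15% and 2.85% of all tested loci were lower. Without control replicate 1 the count was 11 of 57, and the shares were 19.3% and 4.86%. The share next to members was the larger one in each of these 6 fits. These fits share most of their libraries, and the members were chosen on all 6, so the shares are a description only.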

How the data were processed

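RNA sequencing of seedling leaves gave 6 libraries, grouped by title. Raw read counts of 43190 loci were deposited by the authors as whole numbers, 1 column a library, and every row names a locus. CASAVA 1.8, TopHat2 and HTSeq 0.9.1 appear in the submitters' processing notes. Genome build, annotation, strandedness and the counting of multiply matching reads are not given there, so near-identical, overlapping or antisense loci have uncertain counts. In R 4.3.3, loci were filtered with filterByExpr by group, scaled with TMM factors, and tested with edgeR 4.0.16 (two-sided quasi-likelihood test, all 6 libraries, group as the term), with Benjamini-Hochberg adjustment over 23641 loci at 0.05. The SE of a log2 fold change is its size over the square root of F. The fit was checked on simulated data. Alternatives were other scalings, no filter, DESeq2 1.42.0, voom in limma 3.58.1, a replicate block, leaving out each library, and other limits of the rule. Members, lists and tests were chosen with earlier results of these data known. The named members follow the rule given in the text. Floors of 3 reads cover counting error only. No table of names was used, so the lists of product words were not applied.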

Additional observations from a re-analysis of the deposited data

How the results depend on the processing

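Other limits of the rule gave 176 loci with a gap of at least 2, 35 with a gap of at least 4 and 40 with a mean of at least 10 CPM. A lower limit of 3 CPM, no upper limit, no low-count filter and other scalings kept the count within 1.5 times of 64. With library size alone the members' median log2 fold change was -2.90, and 2895 loci were higher and 976 lower over the whole table, against 664 and 1403 with TMM factors, so the balance of calls turned. DESeq2 called 2490 loci (10.5%) lower and 1561 higher, and the cause was not tested. By DESeq2, 63 of the 64 members and 13 of 56 next-number loci (23.2%) were lower. Voom called 1270 loci (5.37%) lower and 585 higher. By voom, 57 of the 64 members and 9 of 56 next-number loci (16.1%) were lower. The replicate block, with fewer degrees of freedom left for the spread, gave 682 loci (2.88%) lower and 248 higher. With the block, 60 of the 64 members and 8 of 56 next-number loci (14.3%) were lower. Deviations of same-numbered libraries from their group means correlated by 0.002, 0.13 and -0.05, and 2 of 6 libraries correlated best with their own number, which gives no ground for pairing. Without 1 library at a time, and so with fewer samples in each fit, 69 to 113 loci met the rule. The median log2 fold change of the members was then -3.28 to -2.90, and 54 to 62 of the 64 members were called lower. Over all tested loci 520 to 1170 (2.15% to 4.86%) were lower and 159 to 427 higher. Of the next-number loci 5 to 11 were called lower. The alternatives for next-number loci and for the order of controls were chosen after seeing the data. The log2 fold changes of the named members and the median of the members stayed negative in each alternative run. A floor of 3 reads per UV-B library corresponded to 0.066 CPM, so the lowest UV-B values rest on few reads.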
